A study of Mus musculus with 1111 samples.

Results

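The MHC class I pathway shows fragments of a cell's own proteins at its surface, and 10 genes of that pathway were followed here across microglia of the mouse brain that carried no, little or much labelled plasma protein. The genes were chosen by name for their place in the pathway: the heavy chains H2-D1, H2-K1, H2-T23 and H2-Q7, the light chain B2m, the peptide transporter genes Tap1 and Tap2, the loading factor Tapbp, and the inducible proteasome subunits Psmb8 and Psmb9. The choice was made with earlier results of these data known. The members were 10 of the 35583 genes in the count tables, and all 10 were found. Among the 9 members that passed a filter on low levels, H2-D1 differed most between plasma high and plasma negative: its summed level was 1.97-fold higher in plasma high than in plasma negative cells, and it was higher in each of the 3 sets of wells. Psmb8 was 1.78-fold higher, H2-K1 and B2m were higher by smaller amounts, and the transporter genes, Tapbp and Psmb9 had no common direction. H2-Q7, the member below the filter, was lower in plasma high in each set of wells, by 0.84 ± 0.46 on the log2 scale, but at 5.24 and 2.51 CPM its size depends on the pseudocount.

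The cells came from the brains of 3-month-old mice, 20 hours after an injection of plasma proteins carrying the fluorescent dye Atto647N, and each GEO sample was 1 sorted cell. Cells were sorted by the fluorescence of the plasma protein in them into plasma negative (titled none), plasma low and plasma high, so all 3 groups came from injected mice and none was uninjected. Strain, sex and the number of animals are not given in the sources used here. Libraries were made by Smart-seq2, which copies full-length mRNA from single cells in plate wells. Each title carries a TH number from 1 to 3, whose meaning is not stated, and every group has cells under each number. Plasma negative cells lay in well columns 1 to 8, plasma low cells in columns 9 to 16 and plasma high cells in columns 17 to 23, so the group and the position on the plate cannot be told apart.

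Of 1111 labelled cells, 1045 had values, and 987 passed a minimum of 50000 reads in genes and 500 genes: 35.1% of these were plasma negative, 35.6% plasma low and 29.4%, or 290 cells, plasma high. No label ties a cell to an animal, so each group counts as 1 sample and no test was made. Reads of the passing cells were summed within each group and TH number, which gave 9 sums of 21309816 to 49323522 reads. Levels are read counts scaled to library size (CPM) after TMM scaling. A ratio is that of CPM + 1 within a TH number on the log2 scale, given as the mean ± SD of the 3 TH numbers (n = 3), a spread between sets of wells and not between animals. Median reads per cell were 175699 to 404743, and both median depth and the median mitochondrial share were higher in plasma high than in plasma negative within each TH number. The part of depth in the results below was measured by drawing 50000 reads from each cell, and that of the mitochondrial share was not tested. Microglial markers were abundant in each group, as the label has it: the 8 listed summed to 49829 ± 1725 CPM in plasma negative, 48931 ± 4653 in plasma low and 49554 ± 4288 in plasma high.

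A class I molecule is a heavy chain held together with beta-2-microglobulin and a short peptide. The peptides come largely from the proteasome, whose catalytic subunits can be replaced by the inducible forms encoded by Psmb8, Psmb9 and Psmb10 to give the immunoproteasome. TAP, built from the Tap1 and Tap2 proteins, carries the peptides into the endoplasmic reticulum, where tapasin, the product of Tapbp, bridges it to empty heavy chains. Interferons and the regulator NLRC5 raise many of these genes together, and microglia are among the brain cells that carry class I at their surface. The heavy chains differ in their readers: H2-D1 and H2-K1 are the classical chains read by CD8 T cells, whereas H2-T23 encodes Qa-1, a nonclassical chain read mainly by NKG2 receptors, and H2-Q7 encodes Qa-2.

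All members but B2m lie in the major histocompatibility region of chromosome 17 (mm10). H2-D1 (ENSMUSG00000073411) spans chr17:35262730-35267499 on the plus strand, H2-K1 (ENSMUSG00000061232) chr17:33996017-34000347 on the minus strand, and B2m (ENSMUSG00000060802) chr2:122147686-122153083 on the plus strand. Psmb8 (ENSMUSG00000024338) spans chr17:34197721-34201454 on the plus strand. Tap1 and Psmb9 point away from each other, and their annotated starts overlap. RefSeq windows around the gene starts (GRCm38.p6) were found for 9 of the 10 members, Tap2 being the exception. Upstream sequences of H2-K1, H2-Q7 and B2m are shown because they hold the short motifs for which class I promoters are known. Capitals mark matches, on either strand, to the interferon regulatory factor motif AANNGAAA, the kappa B motif GGGATTCCC, the core TGACG of the cyclic AMP response element and the CCAAT box, which reads ATTGG on the other strand; no matches shown overlap each other. The H2-K1 sequence is chr17:34000348-34000547 on the minus strand, the H2-Q7 sequence chr17:35438955-35439154 on the plus strand and the B2m sequence chr2:122147486-122147685 on the plus strand.
H2-K1: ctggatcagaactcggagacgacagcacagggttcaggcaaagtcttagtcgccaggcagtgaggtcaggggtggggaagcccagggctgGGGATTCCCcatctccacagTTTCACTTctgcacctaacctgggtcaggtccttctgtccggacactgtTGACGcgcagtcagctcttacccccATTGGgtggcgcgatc
H2-Q7: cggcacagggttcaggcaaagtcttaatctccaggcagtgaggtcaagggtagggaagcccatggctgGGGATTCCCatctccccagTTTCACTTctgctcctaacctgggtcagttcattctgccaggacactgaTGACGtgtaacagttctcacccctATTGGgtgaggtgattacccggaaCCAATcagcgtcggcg
B2m: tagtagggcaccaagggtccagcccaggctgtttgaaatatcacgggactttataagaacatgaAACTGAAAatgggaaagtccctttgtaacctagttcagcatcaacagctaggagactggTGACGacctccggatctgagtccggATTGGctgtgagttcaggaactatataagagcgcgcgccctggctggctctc

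The order kappa B motif, interferon motif, TGACG core and CCAAT box was the same in H2-K1 and H2-Q7, and the B2m sequence held the last 3 of them. The H2-D1 window, whose sequence overlaps an annotated transcript and is not shown, held the same 4 in the same order, with the first bases of the kappa B and interferon motifs at -170 and -150 from the RefSeq start. Among the 9 windows, the interferon motif occurred in 5 (H2-D1, H2-K1, H2-T23, H2-Q7 and B2m), the kappa B motif in 3 (H2-D1, H2-K1 and H2-Q7), the TGACG core in 6 and the CCAAT box in 8. Of 32851 RefSeq windows of the same length, 23.9% held the interferon motif, 0.353% the kappa B motif, 20.8% the TGACG core and 37.4% the CCAAT box, and 5 windows held all 4, among them that of H2-D1, both windows of H2-K1 and that of H2-Q7. The windows of Psmb8, Tapbp, Tap1 and Psmb9 held no match to the interferon motif as spelled here, which says only that these letters are not in those windows.

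Levels between genes were compared per kilobase of merged exons, as means over the 9 sums. B2m stood highest at 2763 ± 557 CPM per kb (SD, n = 9), followed by H2-D1 at 404.3 ± 130.6, H2-K1 at 186.3 ± 29.6 and Tapbp at 149.5 ± 22.3. H2-T23 at 48.7 ± 7.30, Psmb8 at 44.5 ± 12.6 and Tap2 at 30.1 ± 10.03 came next, and H2-T23 and Psmb8 did not differ beyond their spread. Merged exons cover every annotated transcript and can exceed the length of the protein-coding ones. Psmb8 has 3381 merged bases but 1669 different 50-base stretches in its protein-coding transcripts, against 3781 and 3531 for Tap2. The order of genes with near values thus depends on the length used. Psmb9 at 10.7 ± 3.36 and Tap1 at 7.83 ± 2.57 were close to each other, and H2-Q7 was lowest at 0.862 ± 0.852. H2-K1 and Tapbp also lay near each other, their ranges over the sums being 148.2 to 246.1 and 112.8 to 178.1 CPM per kb. In all, the 10 genes took 0.423 ± 0.0245% of the reads of plasma negative cells (SD, n = 3), 0.493 ± 0.0226% of those of plasma low cells and 0.584 ± 0.0678% of those of plasma high cells. The 3 plasma high sums, at 0.534% to 0.661%, lay above the 3 plasma low sums, at 0.476% to 0.519%, and these lay above the plasma negative sums, at 0.407% to 0.451%. B2m and H2-D1 supplied most of those reads.

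**Figure D1:**
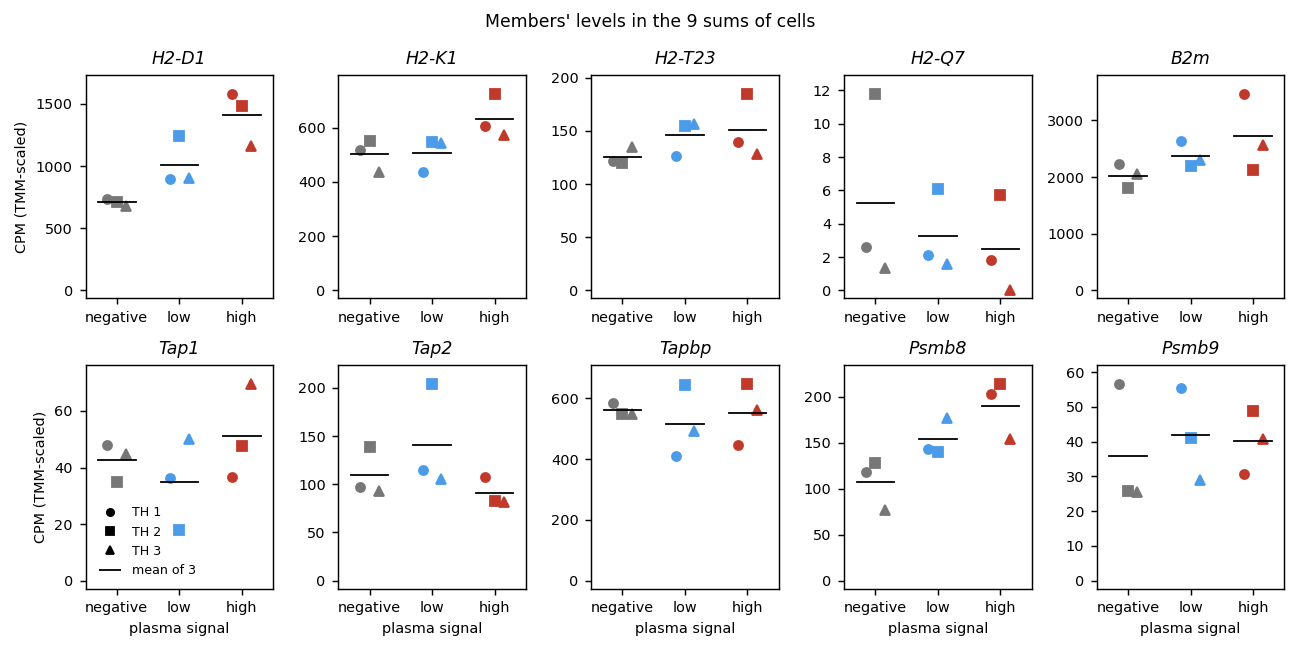
Level of each of the 10 genes (CPM after TMM scaling, linear axis from 0) in the 9 sums of cells, by plasma signal; the marker shape gives the TH number and the line the mean of 3. All 3 plasma high values of H2-D1, H2-K1 and Psmb8 lie above all 3 plasma negative values, while the other members overlap.

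H2-D1 encodes one of the classical heavy chains. In plasma negative its level was 738, 713 and 679 CPM under TH 1, 2 and 3. The same sums stood at 893, 1237 and 899.7 CPM in plasma low and at 1577, 1482 and 1164 CPM in plasma high. Every plasma low and every plasma high sum lay above every plasma negative sum, while plasma low and plasma high overlapped, since the plasma low sum of TH 2 exceeded the plasma high sum of TH 3. On the log2 scale plasma high exceeded plasma negative by 1.09, 1.05 and 0.78 in the 3 TH numbers, with a mean of 0.98 ± 0.17. Plasma low exceeded plasma negative by 0.49 ± 0.27, and plasma high exceeded plasma low by 0.48 ± 0.30. Among the 791 genes with a mean of at least 200 CPM, H2-D1 ranked 6 from the top by its mean ratio of plasma high to plasma negative and 18 by that of plasma low to plasma negative.

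H2-K1 is the other classical heavy chain, and its differences were smaller. Its level was 517, 549 and 437 CPM in plasma negative, 436, 546 and 541.5 CPM in plasma low, and 604.5, 723 and 571 CPM in plasma high. The plasma high sums lay above all others, and plasma low overlapped plasma negative. Plasma high exceeded plasma negative by 0.34 ± 0.095 on the log2 scale and plasma low by 0.32 ± 0.21, whereas plasma low and plasma negative differed by 0.02 ± 0.28. H2-D1 thus stood in a higher proportion to H2-K1 in the plasma groups than in plasma negative. The quotient of their CPM was 1.43, 1.299 and 1.55 in plasma negative, 2.05, 2.26 and 1.66 in plasma low, and 2.61, 2.05 and 2.04 in plasma high. Every plasma low and plasma high quotient lay above the 3 of plasma negative, and plasma low and plasma high overlapped.

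The nonclassical chains gave no such separation. H2-T23 stood at 121.5, 119.9 and 134.7 CPM in plasma negative, at 126.5, 154.6 and 156.7 in plasma low, and at 139.4, 184.5 and 128.2 in plasma high. It was higher in plasma low than in plasma negative in 3 of 3 TH numbers by 0.21 ± 0.15, and in plasma high in 2 of 3 by 0.25 ± 0.35, with overlapping sums. H2-Q7 was read in 7 plasma negative cells (2.02%), 11 plasma low cells (3.13%) and 5 plasma high cells (1.72%). Its sums were at or below 11.8 CPM, and in each sum with reads, 1 cell held 40.3% or more of them. No plasma high cell of TH 3 had a read of H2-Q7, a count of 0 of 93 cells. That count allows a share of up to 3.23% by 3 counts of the total, or 3.89% by the 95% exact binomial interval (counting error only). The level of H2-Q7 was also 7.90-fold higher under TH 2 than under TH 3, against 1.17- to 1.63-fold between the highest and lowest TH number for the other members. H2-Q7 had lower values in plasma high than in plasma negative under each TH number, at this level a difference carried by single cells.

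B2m encodes the light chain that every class I heavy chain needs to reach the surface. Its level was 2224, 1801 and 2060 CPM in plasma negative, 2633, 2198 and 2307 CPM in plasma low, and 3463, 2130 and 2569.8 CPM in plasma high. Within each TH number plasma low and plasma high were above plasma negative, but the groups overlapped, because the TH numbers differed from each other: TH 1 was highest and TH 2 lowest in each group. Plasma high exceeded plasma negative by 0.40 ± 0.21 on the log2 scale, and plasma low exceeded plasma negative by 0.23 ± 0.063. The heavy chains were also set against it. H2-D1 and H2-K1 together came to 0.564, 0.701 and 0.542 of the B2m CPM in plasma negative, and to 0.630, 1.04 and 0.676 in plasma high, a difference of 0.178 ± 0.140 that was positive in each TH number.

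**Figure D2:**
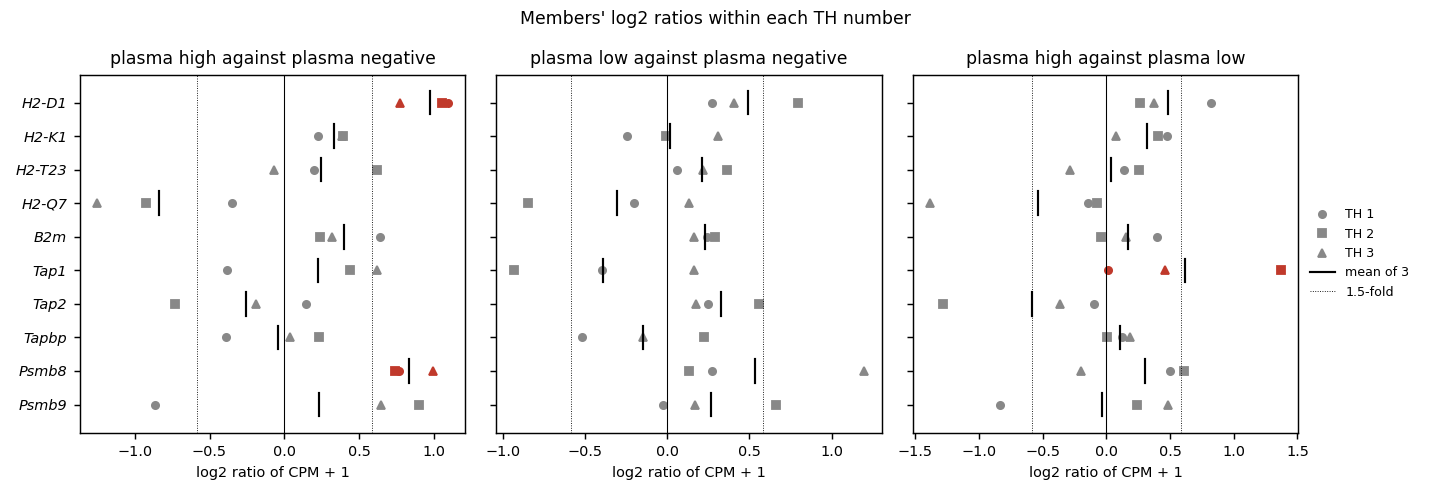
Log2 ratio of CPM + 1 for each gene within each TH number (marker shape) in the 3 comparisons between groups; black bars are means, dotted lines mark 1.5-fold, and red marks the genes whose mean passes 1.5-fold with 1 sign in all 3 TH numbers and whose level passes the filter, which H2-Q7 does not. H2-D1 and Psmb8 are red for plasma high against plasma negative, with means of 0.98 and 0.84, and Tap1 is red for plasma high against plasma low, where its TH 1 value is near 0.

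The genes of peptide transport and loading went in different directions. Tap1 stood at 47.9, 35.03 and 44.8 CPM in plasma negative, at 36.2, 17.9 and 50.2 in plasma low, and at 36.5, 47.8 and 69.4 in plasma high. Plasma high was above plasma low by 0.61 ± 0.69 on the log2 scale, which passed 1.5-fold, but the difference was 0.01 under TH 1 and 1.37 under TH 2. Tap1 was read in 10.8% to 12.8% of the cells of a group, and 1 cell held 14.3% to 40.5% of its reads in a sum. Tap2, the partner of Tap1, stood at 96.8, 138.2 and 92.8 CPM in plasma negative, at 114.98, 203.6 and 104.98 in plasma low, and at 107.3, 82.9 and 81.3 in plasma high. It was highest in plasma low: by 0.33 ± 0.20 against plasma negative and by 0.58 ± 0.62 against plasma high, in 3 of 3 TH numbers each. Without the outermost wells of the plate, however, the first of these was -0.06. Tap1 differed from plasma negative by -0.39 ± 0.55 in plasma low, so the genes of the 2 chains of 1 transporter had mean ratios of opposite sign there. Without the outermost wells the sign was the same, at -0.06 for Tap2 and -0.46 for Tap1. Tapbp, abundant and read in 67.3% to 76.9% of cells, was at 586, 550.1 and 547 CPM in plasma negative, at 409, 643 and 493 in plasma low, and at 447, 646 and 561 in plasma high, a log2 ratio of -0.04 ± 0.32.

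Psmb8 encodes the inducible subunit beta 5i, which replaces the standard subunit encoded by Psmb5. Its level was 118.7, 127.75 and 76.6 CPM in plasma negative, 143.8, 140.001 and 177.3 CPM in plasma low, and 203.2, 213.7 and 154.03 CPM in plasma high. As for H2-D1, all plasma low and plasma high sums lay above all plasma negative sums, and plasma low and plasma high overlapped. Plasma high exceeded plasma negative by 0.84 ± 0.14 on the log2 scale, and plasma low by 0.53 ± 0.58, a mean set largely by TH 3, at 1.199, against 0.27 and 0.13 under TH 1 and 2. The plasma negative sum of TH 1 had 36.7% of its Psmb8 reads in 1 cell, and in the other sums the top cell held 6.86% to 25.4%. The 25.4% was in the plasma low sum of TH 3, the one that set the plasma low mean. Psmb9, which encodes the subunit beta 1i, stood at 56.5, 25.7 and 25.6 CPM in plasma negative, at 55.4, 41.2 and 28.9 in plasma low, and at 30.6, 48.8 and 40.8 in plasma high. It was lower in plasma high under TH 1 and higher under TH 2 and 3, a mean of 0.23 ± 0.95.

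Each inducible subunit was also set against the standard subunit it replaces, per kilobase of merged exons, so the size of a share depends on these lengths. Psmb8 made up 61.9%, 46.5% and 37.8% of the Psmb8 and Psmb5 sum in plasma negative, 60.9%, 68.1% and 62.96% in plasma low, and 77.2%, 70.5% and 54.3% in plasma high. The share was larger in plasma high than in plasma negative under each TH number, by 18.6 ± 4.70 percentage points, though the groups overlapped. Psmb9 made up 15.8 ± 6.15% of its pair with Psmb6 in plasma negative and 13.4 ± 1.13% in plasma high. For Psmb10 and Psmb7 the share was 84.2 ± 1.55% in plasma negative and 79.7 ± 4.34% in plasma high, smaller in plasma high under each TH number. The standard subunit Psmb7 itself exceeded its plasma negative level in plasma high, by 0.70 ± 0.16 on the log2 scale in 3 of 3 TH numbers. Only the Psmb8 pair had a larger inducible share in plasma high than in plasma negative under all 3 TH numbers.

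**Figure D3:**
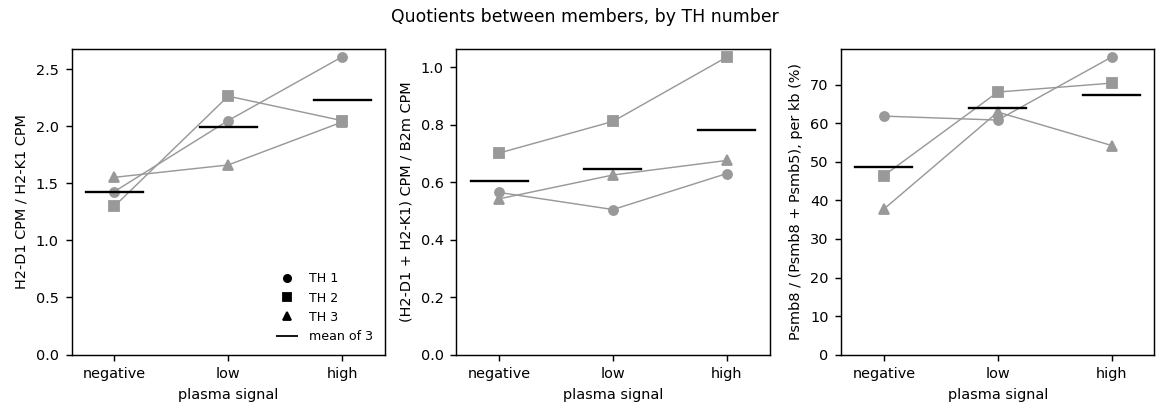
Quotient of H2-D1 to H2-K1 CPM, quotient of H2-D1 plus H2-K1 to B2m CPM, and share of Psmb8 in the Psmb8 and Psmb5 sum per kilobase (%), by plasma signal; grey lines join the sums of 1 TH number and black bars are means of 3. The H2-D1 to H2-K1 quotient was 1.299 to 1.55 in plasma negative and 2.04 to 2.61 in plasma high, without overlap, while the other measures overlap between groups.

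Counted over the list, 4 of 10 members (H2-D1, H2-K1, B2m and Psmb8) were higher in plasma high than in plasma negative in 3 of 3 TH numbers, as were 18.4% of the 5761 genes that passed a level filter (a mean of 20 CPM or more, and reads in 10% or more of 1 group's cells), and 25.3% of the 791 genes of at least 200 CPM. H2-Q7, which fails that level filter, was the 1 member lower in 3 of 3, as were 13.7% of the genes. A size rule asked for a mean of at least 1.5-fold with 1 sign in 3 of 3 TH numbers in a gene that passes the level filter. It was met by 2 members (H2-D1 and Psmb8), both higher. Of the genes that passed the filter, 9.2% met it as higher and 7.05% as lower. H2-Q7 was lower by 1.5-fold or more with 1 sign as well and falls outside the rule only through the filter. Of the genes of at least 200 CPM, the tier of H2-D1, 5.82% met it as higher. In 3 members (H2-D1, H2-K1 and Psmb8) every plasma high sum lay above every plasma negative sum, against 8.28% of genes. The median log2 ratio was 0.24 over the 10 members and 0.049 over all genes that passed the filter. The members were chosen with earlier results of these data known, so these counts and medians are a description only. The median over the members rests in part on TH 2, without which it was 0.090, and without TH 1 the members higher in both remaining TH numbers were 7, against 30.1% of genes under that easier count.

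For plasma low against plasma negative, 5 members (H2-D1, H2-T23, B2m, Tap2 and Psmb8) were higher in 3 of 3 TH numbers, against 16.5% of genes. None met the size rule, which 6.04% of genes did as higher, and 2 (H2-D1 and Psmb8) had every plasma low sum above every plasma negative sum, against 5.28%. The median was 0.22 over the members and 0.046 over all genes that passed the filter. Within TH 1, 2 and 3 the members' median was 0.014, 0.26 and 0.17. Without the outermost wells the median of the members was -0.04 and 2 were higher in 3 of 3, and 2 were so after 50000 reads were drawn from each cell. For plasma high against plasma low, 4 members (H2-D1, H2-K1, Tap1 and Tapbp) were higher in 3 of 3, against 13.9% of genes, and 2 (Tap2 and H2-Q7) were lower, against 13.1%. Tap1 met the size rule as higher, a direction in which 5.33% of genes met it, but no member met it after such thinning. H2-K1 had every plasma high sum above every plasma low sum, as did 5.09% of genes. The comparisons share groups, so their counts are not independent of each other.

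A higher sum can come from more cells with reads or from more reads in those cells, and the members differed in this. Fewer cells of a kind and less RNA per cell cannot be told apart in a sum, but the single-cell values give both parts. H2-D1 was read in 69.9% of plasma negative cells (95% exact binomial interval 64.8% to 74.7%, which covers counting error only), in 84.9% of plasma low cells (80.7% to 88.5%) and in 88.6% of plasma high cells (84.4% to 92.04%). Among the cells with a read, the median H2-D1 level within a TH number was 771 ± 90.1 CPM in plasma negative, 879 ± 158.8 in plasma low and 1169 ± 36.6 in plasma high. Both parts were thus larger in plasma high than in plasma negative, and the medians in cells with a read did not overlap between those 2 groups (669 to 839 against 1139 to 1210 CPM). For plasma low it was mainly the share of cells that stood apart from plasma negative.

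Psmb8 was read in 28.03% of plasma negative cells (23.4% to 33.1%), 43.3% of plasma low cells (38.1% to 48.7%) and 43.8% of plasma high cells (38% to 49.7%). In the cells with a read, however, its median was 311.9 ± 64.8, 294.8 ± 45.3 and 349.4 ± 32.1 CPM in the 3 groups, which overlapped. H2-K1 behaved likewise: its share was 62.1%, 70.1% and 75.9% in the same order, with medians of 617 ± 27.8, 530 ± 113.3 and 616 ± 136.5 CPM in the cells with a read. B2m was read in 98.3%, 99.1% and 98.97% of cells, so its differences lay in its level, with medians of 1773 ± 258.03, 2131 ± 308.1 and 2545 ± 717 CPM in cells with a read. A read of B2m together with one of H2-D1 or H2-K1 was found in 83.5 ± 5.98%, 92.3 ± 2.27% and 94.7 ± 2.90% of the cells of plasma negative, low and high.

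These shares depend on depth, and so they were taken again at 50000 reads drawn from each cell. H2-D1 was then read in 68.7 ± 5.87%, 84.3 ± 3.33% and 87.5 ± 4.06% of cells, and Psmb8 in 25.8 ± 3.76%, 41.3 ± 4.999% and 41.9 ± 5.49%. Plasma high exceeded plasma negative by 18.8 ± 4.17 percentage points for H2-D1, by 16.2 ± 7.03 for Psmb8 and by 13.3 ± 6.30 for H2-K1. In 5 members (H2-D1, H2-K1, H2-T23, Tapbp and Psmb8) the thinned share was larger in plasma high than in plasma negative in 3 of 3 TH numbers, against 34.1% of genes, and the median difference was 6.48 points over the members and 2.46 over all genes. For plasma low against plasma negative it was larger in 6 members, against 37.9% of genes. The cells of both plasma groups thus had reads of more genes in general, and the members exceeded that general difference most in H2-D1, Psmb8 and H2-K1. Of the 10 members, a cell had reads of 4.11 ± 0.202 if plasma negative, 4.76 ± 0.242 if plasma low and 4.83 ± 0.231 if plasma high, all after thinning.

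**Figure D4:**
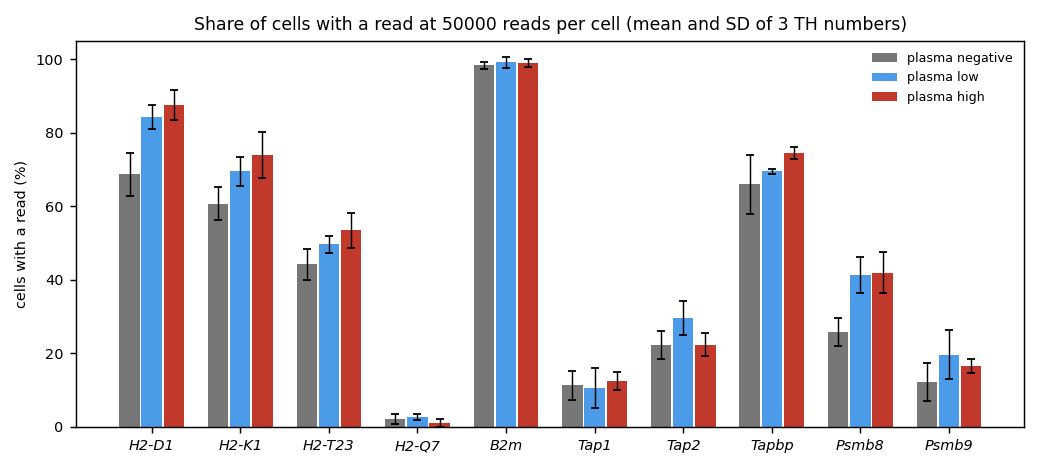
Share of cells with at least 1 read of each gene (%, axis from 0) after 50000 reads were drawn from each cell, as the mean of the 3 TH numbers in each group, with SD as the error bar. The largest differences between plasma negative and plasma high are those of H2-D1 (68.7% to 87.5%), Psmb8 (25.8% to 41.9%) and H2-K1.

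Within groups the members were only weakly tied to each other from cell to cell. Across the 987 cells, with the mean of each group and TH number subtracted, the 45 pairs of members had Pearson r from -0.058 to 0.169, with a median of 0.036; the highest pair was H2-D1 with H2-K1. In counts as sparse as these a weak correlation is no finding, and the cells share libraries and depth. By the same measure, the 5 genes most like B2m, H2-D1 and H2-K1 on average, of 2807 compared, were Gm49369 (0.129), the complement genes C1qa (0.125) and C1qb (0.118), the lysosomal protease gene Ctsd (0.118) and Gm20425 (0.110). The 3 members had a mean r of 0.128 among themselves, and the genes compared had a median of 0.018. Within the 9 sums, the correlation of a cell's level with its well column ran from -0.152 to 0.104 for H2-D1, from -0.146 to 0.086 for Psmb8, from -0.195 to 0.201 for H2-K1 and from -0.228 to 0.066 for B2m, with means of -0.012, -0.024, 0.018 and -0.072. These values are within groups and do not separate the groups from the columns they occupy.

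Other genes of the pathway were read from lists chosen by function. Of 17 other heavy chain genes, 15 were found and 4 passed the level filter, and none of the 4 met the size rule between plasma high and plasma negative. The highest and lowest ratios at 20 CPM or more were 0.17 ± 0.89 for H2-M3 and -1.35 ± 1.60 for Cd1d1, a lipid-presenting relative. Cd1d1 was lower in 3 of 3 TH numbers and every plasma high sum lay below every plasma negative sum, but it was read in at most 6.55% of the cells of a group and so failed the filter. All 9 genes of loading, trimming and folding passed the filter and none met the size rule, with Uggt1, the glucosyltransferase that checks glycoprotein folding, at 0.35 ± 1.31 and the peptide-trimming gene Erap1 at -0.15 ± 1.15. Tapbpl, whose product TAPBPR edits the peptides of class I, met it in plasma low against plasma negative: it was at 25.5 ± 3.81 CPM in plasma negative, 61.3 ± 6.31 in plasma low and 28.8 ± 13.4 in plasma high. It was thus highest in plasma low, as Tap2 was, by 1.24 ± 0.16 on the log2 scale against plasma negative. Of the immunoproteasome and activator list, 4 of 5 genes passed and none met the size rule. Psmb10 was at 0.29 ± 0.25 and the activator gene Psme2 at -0.01 ± 0.67. Of the 3 standard subunits, Psmb7 met it, and Psmb5 was at -0.31 ± 0.37.

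Of 14 genes for transcription factors known at class I promoters, 9 passed the filter and 3 met the size rule between plasma high and plasma negative. They met it 1 as higher and 2 as lower, directions in which 9.2% and 7.05% of the genes that passed the filter met it. Irf1, an interferon-induced factor, had a log2 ratio of 0.75 ± 0.57 and stood at 61.4 ± 23.7 CPM against 102.3 ± 37.4, its sums overlapping. Nfkb1, a subunit of NF-kappa B, was lower by 0.59 ± 0.18, and Creb1, which binds cyclic AMP response elements, was lower by 0.80 ± 0.48. Nlrc5, the regulator of class I genes, had a mean of 3.83 CPM, too low for a comparison. Of 23 interferon response genes, 22 were found. The 5 that passed the filter (Bst2 and the receptor genes Ifnar1, Ifnar2, Ifngr1 and Ifngr2) did not meet the size rule in any comparison. Of all 22, 17 had a mean ratio of plasma high to plasma negative above 0, 7 were higher in 3 of 3 TH numbers (Ifit2, Ifit3, Irf7, Rtp4, Ifi27l2a, Ifitm3 and Zbp1) and 2 were lower (Stat2 and Xaf1). These 9 passed 1.5-fold, but each was read in at most 8.28% of the cells of a group and failed the filter. Of the genes that passed it, 54.4% had a mean ratio above 0 and 18.4% were higher in 3 of 3. No such share was taken over genes as low as these 9, so their counts have no matching background. The ratio was 1.64 ± 0.67 for Rtp4, the highest at 20 CPM or more, and 1.26 ± 0.16 for Irf7, an interferon-induced transcription factor. The lowest at 20 CPM or more was that of Ifngr1, at -0.10 ± 0.22. The list's median ratio was 0.17, 0.89 and 0.12 under TH 1, 2 and 3, above 0 in each. Its summed level, to which Ifngr1 alone gave a mean of 1557 CPM, was 2367, 2484 and 2206 CPM in plasma negative and 2223, 2939 and 2030 in plasma high, higher under TH 2 only. In the MHC class II list, Cd74, the invariant chain, was at 6.93 ± 6.95 CPM in plasma negative and 40.9 ± 13.2 in plasma high. That was a log2 ratio of 2.70 ± 1.31, while H2-DMb1 was at 0.04 ± 0.37. Cd74 met the size rule there and in plasma low against plasma negative, at 1.91 ± 1.02. Its plasma low mean was 47.6 CPM, with an SD larger than that mean. Plasma high against plasma low had no common sign, at 1.86, 2.27 and -1.74 under TH 1, 2 and 3. Cd74 was read in at most 10.7% of the cells of a group, just above the 10% of the filter.

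Class I genes are expressed by nearly all cell types, so markers of other types were read beside them. Border-associated macrophage markers summed to 0.664 ± 0.595, 9.89 ± 10.7 and 2.29 ± 2.25 CPM in plasma negative, low and high, with Cd163, Lyve1, Pf4, F13a1 and Ms4a7 at 0. Monocyte markers summed to 2.65 ± 3.99, 2.81 ± 4.86 and 2.66 ± 4.25 CPM, with Ly6c2, Plac8, Chil3 and Fn1 at 0. The lymphocyte list stood at 35.5 ± 0.382, 35.4 ± 8.81 and 49.9 ± 30.5 CPM, all of it Cd79b, and the endothelial list at 12.9 ± 11.5, 18.3 ± 4.02 and 16.7 ± 6.10 CPM with Cldn5 at 0. Apart from Cd79b, Pecam1, Mrc1 and Ccr2, the markers of these lists were at or near 0. Pecam1 was at 11.98, 17.2 and 16.6 CPM in plasma negative, low and high, and Mrc1 was at 9.88 CPM in plasma low. Oligodendrocyte markers, led by Cnp, summed to 159.3 ± 47.6, 169.6 ± 35.3 and 212.8 ± 48.4 CPM, and 2 plasma negative and 3 plasma high cells had 3 or more of them. Without those cells, plasma high exceeded plasma negative by 0.96 ± 0.17 on the log2 scale for H2-D1 and by 0.78 ± 0.14 for Psmb8. The neutrophil list, at 362.4 ± 65.3, 391 ± 28.5 and 374.7 ± 3.40 CPM, was all Csf3r, which microglia also express, and the astrocyte list, at 324.02 ± 86.4, 275.99 ± 54.03 and 225.03 ± 16.5 CPM, was nearly all Slc1a3, with Aldh1l1 and Gja1 at 0. Dendritic cell markers summed to 15.8 ± 13.7, 17.04 ± 12.8 and 15.4 ± 18.3 CPM, and neuronal markers to 0.226 ± 0.365, 0.773 ± 1.34 and 18.4 ± 31.9 CPM, the last from TH 2.

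The values of most members carry a limit from sequence. Of the 50-base stretches of H2-D1 transcripts, 13.9% also occur in transcripts of other genes, most often H2-Q1. The share was 6.87% for H2-K1, 29.8% for H2-T23 and 34.9% for H2-Q7. It was 22.4% for Tapbp, most often with Gm19412, 12.1% for Tap2 and 6.27% for Tap1. How reads with several matches were counted is not given in the sources used here. H2-T23, H2-Q7 and Tapbp are therefore uncertain, and H2-D1 and Tap2 are so in part. H2-Q1 was at 0 CPM in all 9 sums. For Psmb8 the share was 5.51%, with the antisense gene Gm20496, and B2m and Psmb9 had no such stretch. B2m, H2-T23, Tap1, Tap2, Tapbp, Psmb8 and Psmb9 overlap other annotated genes, most of them on the opposite strand, and Smart-seq2 does not mark strand, so reads in those overlaps cannot be assigned to a strand.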

How the data were processed

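Smart-seq2 libraries of single microglia were compared between 3 groups set by plasma fluorescence. The deposited counts are reads per gene and cell, unscaled; 1 column of the TH 3 table holds 2 values that are not whole, and its expected counts as deposited were rounded. Per the submitters' processing notes, bcl2fastq, Trim Galore, STAR 2.5.3a and Seurat were used with mm10, with no role or order given. The tool that counted reads, and how it treated strand and multiply mapped reads, are not given in the sources used here, and the names of the TH 2 and TH 3 columns, unlike those of TH 1, end in a mark of top hits only, so TH numbers may differ in processing. 

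The 10 members and the lists of pathway genes, markers and motifs were chosen with earlier results of these data known. Cells with at least 50000 reads and 500 genes were summed per group and TH number (Python 3.11.15, numpy 2.4.6) and scaled by TMM (edgeR 4.0.16, R 4.3.3), with a pseudocount of 1 CPM. As no label names an animal, a group is 1 sample and no p-value is given. Named genes were all members, the extremes of each list in plasma high against plasma none at 20 CPM or more, every list gene meeting the size rule, and the 5 genes most like B2m, H2-D1 and H2-K1; Nlrc5, H2-Q1 and the interferon genes beside Rtp4 and Ifngr1 were added after their values were seen. The calling of sizes was tested on simulated data. Gene coordinates and lengths match GENCODE M21, and sequences are from RefSeq. Alternatives covered scaling, pseudocount, cell filters, depth, single cells, wells and each TH number; 66 labelled cells were not analysed here.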

Additional observations from a re-analysis of the deposited data

How the results depend on the processing

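On the log2 scale, the ratio of plasma high to plasma negative lay between 0.92 and 1.12 for H2-D1 over the 14 alternatives, between 0.75 and 1.003 for Psmb8, between 0.29 and 0.43 for H2-K1 and between 0.28 and 0.48 for B2m, and none of these changed sign. Of the 140 alternative values of the 10 members in a comparison, 5 moved by more than the SD over TH numbers for plasma high against plasma negative, 3 for plasma low against plasma negative and 1 for plasma high against plasma low. H2-D1 and Psmb8 met the size rule between plasma high and plasma negative in each alternative except a 2-fold rule, which 0 members met. In plasma high against plasma low, 1 member met the size rule, against 0 with a pseudocount of 5 CPM, with every cell with a read, after thinning, with the mean of the cells' own CPM or at 2-fold, and 2 with a pseudocount of 0.1 CPM or at least 100000 reads per cell; leaving out 1 TH number gave 1 to 2. In plasma low against plasma negative the count was 0, but 1 with the mean of the cells' own CPM or without each gene's top cell, and 1 to 2 with 1 TH number left out. The members higher in 3 of 3 there were 5, against 2 without the outermost wells and 2 after thinning, and the median of 0.22 was -0.043 without the outermost wells. With 1 TH number left out, 4 to 7 members were higher in both remaining TH numbers in plasma high than in plasma negative, and their median was 0.090 to 0.34. The cause of these shifts was not tested. No test was made, so there was none to which the TH number could be added as a block. The ratios themselves are taken within TH numbers.

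Reads of Tap1, Psmb9 and H2-Q7 were found in 11.9%, 18.03% and 2.33% of the 987 cells, so few cells stand behind their values. The SD over TH numbers is no spread between animals, and the group cannot be told apart from the well columns.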
